A study of Mus musculus with 48 samples.

Results

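The differences between the ascending aorta (AA) and the descending aorta (DA) of mice without a working Lox gene were described from 8 of the 48 arrays of a mouse series on elastic fibre defects. The members are the arrays whose sample titles begin with Lox KO, 4 of AA and 4 of DA. At each location 2 arrays came from embryonic day 17.5 (E17.5) and 2 from postnatal day 1 (P1). All 8 were of the genotype KO for Lox on the strain B6 albino. Their wild-type counterparts, another 8 arrays labelled WT of the same strain, locations and stages, served for comparison, as did 8 arrays each of Eln KO and Efemp2 KO aorta. Per the labels, tissue was snap frozen, mice were genotyped and each array read a pool of 8 samples of 1 kind, so that a value is already a mean over animals and p-values measure the spread between pools. The labels name no inducible or cell-type-limited allele, do not say where the Lox gene was disrupted and do not give the sex of the animals.

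Lysyl oxidase, the product of Lox, is secreted by smooth muscle cells and fibroblasts and cross-links elastin and collagen, and mice that lack it die around birth with aortic aneurysms. The vessel wall of the ascending aorta is built from neural crest and second heart field, whereas that of the descending aorta comes from trunk mesoderm. Trunk cells keep a record of their position in the Hox genes, transcription factor genes arranged in 4 clusters and switched on in order along the body axis. The sympathetic chain and its chromaffin cells lie beside the descending aorta, and the outflow tract of the heart lies next to the ascending aorta.

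Values are log2 signals, and 1 unit is a doubling. A difference is DA less AA averaged over the stages, given with its standard error (SE), less the median of all 15337 tested genes. That median was 0.11 over both stages, 0.02 at E17.5 and 0.19 at P1. A printed difference is lower by that amount than the one between the array values, so a fall in DA is printed as larger and a rise as smaller. P-values come from limma on the values as deposited and test the difference before the median is taken off. They are adjusted over all tested genes, and a gene passed below 0.05. Array medians were 3.73 to 3.80 at E17.5 and 4.85 to 5.19 at P1 in Lox KO, so levels were compared only within a stage. Replicate arrays correlated at 0.975 to 0.989 across genes. The labelled tissue carried its markers, since Acta2, smooth muscle actin, read 11.15 to 12.75 and Myh11, smooth muscle myosin, 9.55 to 11.12 in the 8 arrays.

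The deleted gene was low in the arrays labelled KO. Lox read 7.99 and 6.56 in AA against 7.93 and 6.26 in DA at E17.5, then 8.66 and 8.51 in AA against 8.71 and 8.38 in DA at P1. The WT arrays read 9.55 to 9.84 at E17.5 and 11.25 to 11.48 at P1, above every KO array of the same stage. KO was lower than WT by 2.66 ± 0.16 on average (adjusted p = 1.47e-12, limma), and the part of the gene that the probe set reads is not given, so the signal left in KO cannot be assigned to an intact transcript. Both E17.5 arrays with the number 1 kept more Lox signal than those with the number 2, at either location. Within KO, Lox did not pass the test between DA and AA (adjusted p = 0.937).

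In Lox-null aorta, 211 genes were higher in DA than in AA and 39 were lower, 1.38% and 0.254% of the genes tested and 1.63% together. The genes higher in DA were led by the sympathetic markers Chgb and Dbh, the Hox genes Hoxb6 and Hoxc6 and the neurofilament genes Ina and Nefl. Most of these had low signal in AA, as described below. The genes lower in DA, that is higher in AA, were led by the transcription factors Tcf21 and Osr2 and the growth factor Ptn. All 250 had the same sign at both stages. In 243 of them the DA and AA arrays did not overlap at either stage, against 17.2% of all tested genes. Since the genes were called on the stage-averaged difference of these same arrays, both counts follow largely from the calling and add no support. The share of higher genes was 84.4% of the calls, 68.6% after each array was centred on its median (133 higher, 61 lower) and 65.4% after cyclic loess (151 higher, 80 lower). Leaving out any 1 of the 8 arrays gave 115 to 146 higher and 24 to 39 lower genes, and leaving out both number 1 arrays of E17.5 gave 93 and 15.

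**Figure D1:**
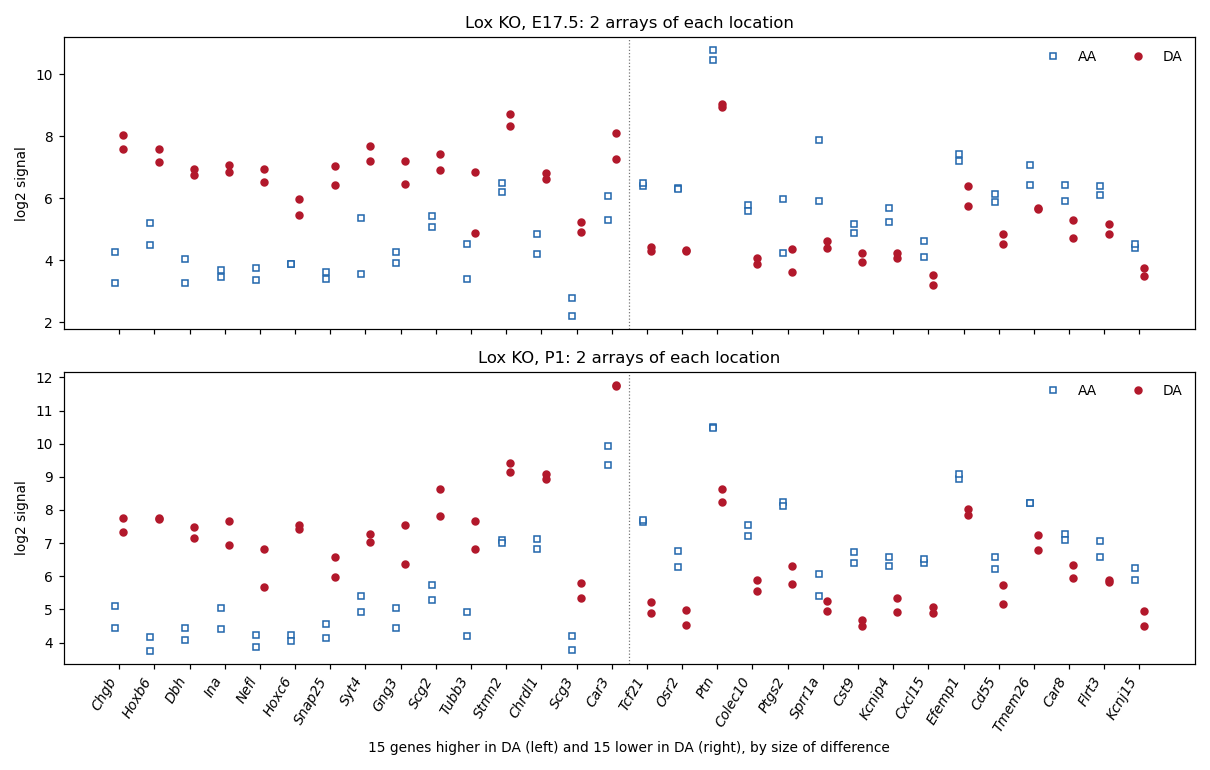
Log2 signal of the 15 genes with the largest positive and the 15 with the largest negative difference among the genes past the threshold in Lox KO, in the 2 AA arrays (open squares) and 2 DA arrays (filled circles) at E17.5 (top) and P1 (bottom). At E17.5 Hoxb6 was at most 5.19 in AA and at least 7.18 in DA, at P1 at most 4.18 and at least 7.73, Tcf21 lies the other way, and Ptgs2 is the gene whose E17.5 arrays overlap.

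Of the 39 Hox genes looked for, 36 had a probe set of their own, 22 were tested, 12 were higher in DA and 0 were lower by limma. Over all tested genes the shares were 1.38% higher and 0.254% lower. Hoxb6 read 4.49 and 5.19 in AA against 7.18 and 7.59 in DA at E17.5, then 4.18 and 3.76 in AA against 7.76 and 7.73 in DA at P1. At each stage both DA arrays lay above both AA arrays, a difference of 3.05 ± 0.24 (adjusted p = 2.38e-10, limma). Hoxc6 read 3.87 and 3.89 against 5.45 and 5.97 at E17.5 and 4.23 and 4.04 against 7.42 and 7.55 at P1. Its groups did not overlap at either stage (2.48 ± 0.24, adjusted p = 2.9e-08, limma), and AA lay below the 4.94 level used as the filter on low signal.

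The other Hox genes that passed were Hoxa5 (1.74), Hoxc8 (1.64), Hoxa6 (1.61), Hoxb8 (1.48), Hoxa9 (0.98), Hoxa7 (0.88), Hoxc4 (0.85), Hoxd8 (0.85), Hoxb5 (0.78) and Hoxb7 (0.66). Hoxa5 read 4.60 and 3.66 in AA against 6.04 and 6.14 in DA at E17.5, then 5.31 and 5.78 against 7.37 and 7.19 at P1, with no overlap. By position in the clusters, a grouping chosen after the values were seen and so only a description, the 10 tested genes of paralogue groups 5 to 8 had differences of 0.66 to 3.05. Of these, 4 (Hoxb7, Hoxb8, Hoxc6 and Hoxc8) did not reach the filter in any AA group of the series and could enter only by being high in DA, and the other 6 passed too. Within Lox KO, 5 of these 6 reached the filter in AA, and Hoxb6 did not. Groups 1 to 4 ran from -0.41 to 0.85, with Hoxc4 the 1 of 8 that passed, and in groups 9 to 13 Hoxa9 was the 1 of 4. Hoxd3 (-0.41), Hoxa2 (-0.33), Hoxc10 (-0.13), Hoxa4 (-0.12) and Hoxb2 (-0.03) were the members with values below 0, and none of them passed. Before the median was taken off, Hoxb2 had 0.07.

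The median over the 22 tested Hox genes was 0.72, where that of all tested genes is 0 by construction. It was 0.55 at E17.5 and 0.85 at P1. Only 8 of the 12 genes that passed, and 17 of the 22 tested, reached the filter in an AA group of the series, against 186 of the 211 genes higher in DA, so those that entered through DA alone are no support for a direction. Hoxb6, Hoxa9 and Hoxc4 reached it in AA only outside Lox KO. Within Lox KO they reached it only in DA, so they are not taken as support for a direction either. Hoxb5 has a second probe set with a difference of 2.06, and neighbouring Hox genes of 1 cluster are not independent of each other. The call of Hoxb5 was lost in 12 of 22 alternative settings and that of Hoxc4 in 11 of the 21 it could be tested in, and Hoxb6, Hoxc6, Hoxa6 and Hoxa7 kept theirs in all 22.

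**Figure D2:**
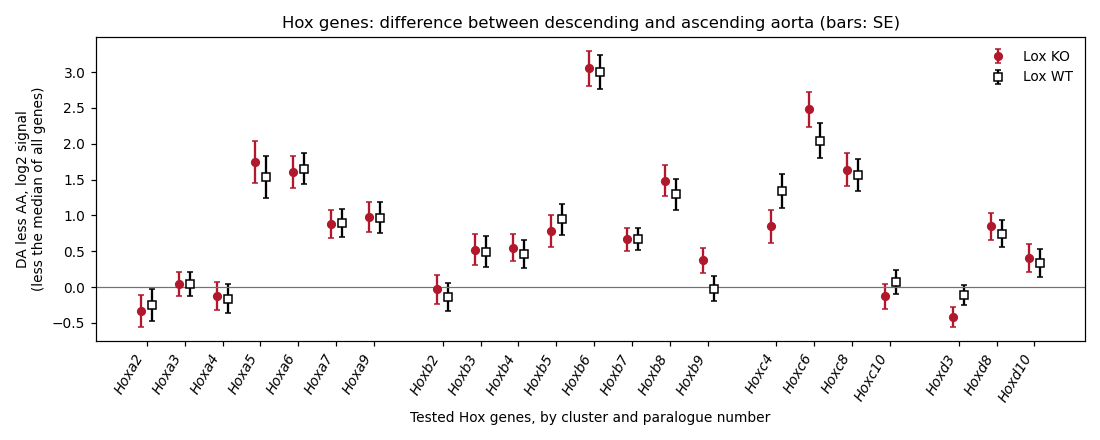
DA less AA for the 22 tested Hox genes, grouped by cluster and ordered by paralogue number, in Lox KO (filled circles) and Lox WT (open squares), in log2 units less the median of all tested genes, with bars of 1 SE. The genes of groups 5 to 8 stand between 0.66 and 3.05 in KO, and the same 12 genes passed in WT.

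Promoter sequence was at hand for 7 of the 12 Hox genes that passed. It is printed for 3 of them and for Tcf21, the gene with the largest difference the other way, to show what the searched motifs mark. Each sequence is the 250 bases before the RefSeq start of the gene in GRCm38.p6, read 5′ to 3′ on the strand of the gene, with motif matches in capitals.
Hoxa6, chr6:52208673-52208922, minus strand: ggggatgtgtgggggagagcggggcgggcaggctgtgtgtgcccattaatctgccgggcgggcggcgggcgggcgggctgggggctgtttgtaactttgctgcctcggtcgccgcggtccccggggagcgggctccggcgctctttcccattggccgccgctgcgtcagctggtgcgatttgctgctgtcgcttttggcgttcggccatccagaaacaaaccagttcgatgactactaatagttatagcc
Hoxc4, chr15:103034145-103034394, plus strand: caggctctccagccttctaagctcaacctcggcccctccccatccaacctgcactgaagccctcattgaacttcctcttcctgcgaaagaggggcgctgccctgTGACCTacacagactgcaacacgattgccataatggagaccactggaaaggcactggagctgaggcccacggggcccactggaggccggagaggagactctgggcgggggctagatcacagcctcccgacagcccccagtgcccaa
Hoxd8, chr2:74704365-74704614, plus strand: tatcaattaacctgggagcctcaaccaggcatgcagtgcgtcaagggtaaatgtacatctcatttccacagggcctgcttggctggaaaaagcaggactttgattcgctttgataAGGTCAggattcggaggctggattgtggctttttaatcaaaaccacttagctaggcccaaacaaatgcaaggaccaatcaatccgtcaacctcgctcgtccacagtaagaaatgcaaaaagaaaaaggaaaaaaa
Tcf21, chr10:22820144-22820393, minus strand: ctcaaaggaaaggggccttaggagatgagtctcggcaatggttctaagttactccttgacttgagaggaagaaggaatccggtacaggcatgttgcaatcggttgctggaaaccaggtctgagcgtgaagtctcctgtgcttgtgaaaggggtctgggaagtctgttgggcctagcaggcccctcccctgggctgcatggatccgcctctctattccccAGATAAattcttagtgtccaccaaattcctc
In a search of 300-base windows (250 before and 50 after the start, both strands) for the core of nuclear receptor sites, AGGTCA, 3 of the 7 Hox windows held it, Hoxa5, Hoxc4 and Hoxd8, against 16.3% of all 32851 windows. The capitals mark it in Hoxd8 and, read on the opposite strand as TGACCT, in Hoxc4, while Hoxa5 has it after the start. The GATA core AGATAA was in 0 of these 7 windows and in 11.2% of all, and it stands in capitals in the Tcf21 sequence. The homeobox core TAATTA (5.29% of all windows), the E-box CACGTG (7.15%) and the CArG box (1.63%) were in 0 of the 7, and no motif searched contains another. A match names letters only, and none of these arrays reads binding.

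Genes of sympathetic neurons and chromaffin cells, which make and store noradrenaline, were higher in DA. Of 11 tested markers, 9 passed, 0 were lower by limma, and the median was 1.27. Over all tested genes, 1.38% were higher in DA. Among those that passed, Dbh, Snap25, Tubb3, Ddc and Prph had group means below the filter on low signal in every Lox AA group. Within the Lox arrays these genes reached the filter only in DA. Whether they reached it in AA of the other models was not counted, so they are not taken as support for a direction. The count of 9 and the median include them. Dbh, the enzyme that makes noradrenaline, read 4.04 and 3.28 in AA against 6.96 and 6.75 in DA at E17.5, then 4.43 and 4.07 against 7.16 and 7.50 at P1. The locations did not overlap (3.03 ± 0.54, adjusted p = 0.000707, limma). Chgb, a chromogranin of dense-core granules, had the largest difference of all, 3.31 ± 0.57, with 4.27 and 3.25 against 8.04 and 7.59 at E17.5 and 4.45 and 5.09 against 7.34 and 7.76 at P1. Its DA arrays lay above its AA arrays at each stage.

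The other markers that passed were Snap25 (2.48), a vesicle fusion protein, Tubb3 (2.18), neuronal tubulin, Stmn2 (2.10), Gap43 (1.27), Ddc (1.17), Prph (1.17) and Slc18a2 (1.07), the vesicular monoamine transporter. Th, the first enzyme of the pathway, had 0.92 (adjusted p = 0.297, limma) and Chga 0.50 (adjusted p = 0.41, limma). Outside the list, the 15 genes with the largest positive differences included the filament genes Ina (2.87) and Nefl (2.58), the vesicle protein gene Syt4 (2.38), the G protein subunit gene Gng3 (2.37), and the secretogranin genes Scg2 (2.21) and Scg3 (1.98). Syt4 has further probe sets, with differences of 0.41 and 0.66. Ina, Nefl and Scg3 had group means below the filter on low signal in every Lox AA group, so they too are not taken as support for a direction. Among the 22 settings, the call was lost in 14 for Tubb3, 11 for Prph, 7 for Gng3 and 6 for Gap43. Each of these also changed sign in 1 further setting. Chgb, Dbh and Stmn2 lost their calls in 1 and Ddc in 2. In a bulk sample, more cells of a type and more of its RNA per cell cannot be told apart.

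The mean level of the 11 markers at E17.5 was 4.53 in AA against 6.50 in DA, and 5.45 against 7.18 at P1. The Hox mean was also higher in DA at both stages. Between replicate KO arrays of a location, the marker and Hox means differed in opposite directions at E17.5 and in the same direction at P1. When the marker level was added as a covariate, 13 genes were higher and 10 lower, with SEs larger by a median factor of 1.40. This alternative was chosen after the data were seen. Of the 12 Hox genes 4 kept their calls, Hoxb6 (3.28 ± 0.34), Hoxc6 (2.12 ± 0.33), Hoxa6 (1.56) and Hoxa7 (1.32). The other 8 lost them, with Hoxc4 at 0.35 and Hoxb7 at 0.40, and so did Kdr (0.60), Plxnd1 (0.38) and Pparg (0.47). Scg2, Hhip, Chrdl1, Vwf, Tcf21, Osr2, Ptn, Colec10, Kcnip4 and Tmem26 also passed. Of the 10 lower genes, Hand2 (-1.47) and Clca3a1 (-1.14) passed only with the covariate, from -0.54 and -0.73 without it. The differences of Snap25 (-0.027), Gng3 (-0.31), Tubb3 (-0.68), Gap43 (-0.25) and Prph (-0.10) fell below 0. Since the markers are themselves among the genes tested and differ between the locations, this fit also removes part of any difference that goes with location.

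**Figure D3:**
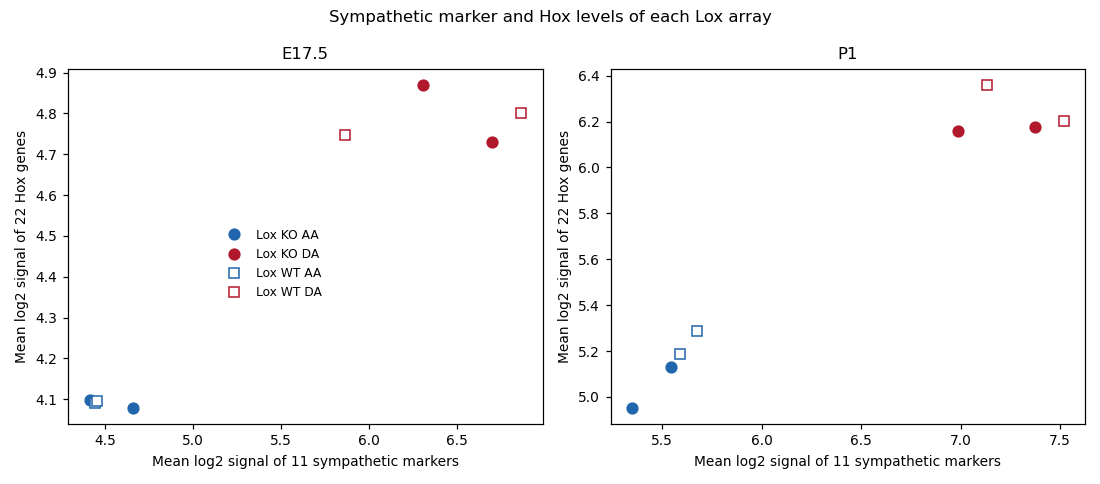
Mean log2 signal of the 22 tested Hox genes (vertical axis) against that of the 11 tested sympathetic markers (horizontal axis) in each Lox array at E17.5 (left) and P1 (right). Filled circles are KO, open squares WT, blue AA and red DA. At each stage the DA arrays lie above and to the right of the AA arrays in KO and in WT. Values are as deposited, and positions of KO against WT also carry differences in array median.

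The genes lower in DA, and so higher in the ascending aorta, included transcription factors and secreted proteins. Tcf21, a factor of epicardial and fibroblast precursors, read 6.40 and 6.48 in AA against 4.42 and 4.31 in DA at E17.5, then 7.63 and 7.69 against 4.90 and 5.24 at P1. The AA arrays were above the DA arrays at both stages (-2.44 ± 0.27, adjusted p = 2.16e-06, limma). Osr2, a zinc finger factor of the trunk mesoderm list, read 6.33 and 6.29 against 4.30 and 4.33 at E17.5 and 6.77 and 6.28 against 4.99 and 4.51 at P1. It too had no overlap (-1.99 ± 0.20, adjusted p = 4.54e-07, limma).

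Ptn, which encodes the heparin-binding growth factor pleiotrophin, was bright at both locations. It read 10.47 and 10.77 in AA against 9.03 and 8.95 in DA at E17.5, then 10.50 and 10.48 against 8.63 and 8.24 at P1. The AA arrays were higher at both stages (-1.95 ± 0.13), and its adjusted p of 8.64e-11 was the smallest of the comparison by limma. Ptgs2, the inducible cyclooxygenase, read 5.98 and 4.24 in AA against 3.61 and 4.37 in DA at E17.5, then 8.25 and 8.12 against 6.32 and 5.77 at P1. Its locations overlapped at E17.5 (-1.73 ± 0.33, adjusted p = 0.00368, limma), and without both number 1 arrays of that stage it had -1.11 and an adjusted p of 0.342 by limma.

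The remaining 11 of the 15 genes with the largest negative differences ran from -1.80 to -1.20, with no overlap of the locations at either stage in any of them. They were the collectin gene Colec10 (-1.80), Sprr1a (-1.62), the cystatin gene Cst9 (-1.56), the potassium channel partner Kcnip4 (-1.41), the chemokine gene Cxcl15 (-1.34), Efemp1 (-1.26), which encodes fibulin-3, the complement regulator Cd55 (-1.25), Tmem26 (-1.25), Car8 (-1.21), the adhesion protein gene Flrt3 (-1.20) and the potassium channel gene Kcnj15 (-1.20). Sprr1a was lost in 14 of the 22 settings. Tcf21, Osr2, Ptn, Colec10, Kcnip4 and Tmem26 kept their calls in all 22.

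The lists of transcription factors of the aorta's embryonic sources held few calls beyond these. Of 23 tested heart and outflow tract factors, 2 were lower in DA, Tcf21 and Tbx20, 0 were higher by limma, and the median was -0.20. Tbx20, a T-box factor of the heart, read 6.40 and 6.84 against 5.34 and 5.35 at E17.5 and 7.80 and 7.92 against 7.41 and 6.75 at P1 (-1.13 ± 0.23, adjusted p = 0.00904, limma). Its AA arrays were the higher ones at both stages. Of 18 cranial neural crest and pharyngeal arch factors, 2 were higher in DA, Prrx1 (0.80) and Foxd1 (0.81), and of 15 trunk mesoderm factors, Nr2f2 (0.58) was higher and Osr2 lower. The medians of these 2 lists were -0.13 and 0.01. Foxd1 read 2.00 and 2.27 in AA against 2.78 and 2.89 in DA at E17.5, then 4.14 and 4.01 against 5.36 and 5.07 at P1. Within the Lox arrays it reached the filter on low signal only in DA at P1, so it is not taken as support for a direction.

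Few genes of the signalling lists passed, and those that did were higher in DA. Outside the lists, Bmp3 (0.65) was also higher, while the growth factor gene Ptn and the Wnt antagonist gene Sost were lower. Hhip, a membrane protein that binds and restrains hedgehog ligands, was the 1 of 23 tested Wnt, Notch and hedgehog genes that passed (list median -0.04). It read 3.71 and 3.69 in AA against 6.05 and 6.08 in DA at E17.5, then 6.46 and 6.40 against 8.17 and 8.06 at P1, with no overlap (1.92 ± 0.19, adjusted p = 2.9e-08, limma). Chrdl1, a secreted antagonist of bone morphogenetic proteins, was the 1 of 26 listed TGF-beta and BMP genes that passed (list median -0.02). It read 4.86 and 4.20 against 6.82 and 6.63 at E17.5 and 6.81 and 7.13 against 9.08 and 8.93 at P1, again with DA above AA at both stages (2.01 ± 0.26, adjusted p = 5.06e-06, limma).

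Of 22 guidance genes 3 were higher in DA, the secreted repellent Slit2 (0.93), the semaphorin receptor Plxnd1 (0.86) and Sema3a (0.36). Over all tested genes, 1.38% were higher. Within the Lox arrays Sema3a reached the filter on low signal only in DA at P1. Of 24 growth factors and vasoactive receptors 3 were higher, Fgf7 (1.15), Agtr2 (0.85), the type 2 angiotensin receptor, and Igfbp3 (0.57). Of 14 genes that handle retinoic acid, the signal that sets Hox expression in the embryo, Crabp1 (1.17), a retinoic acid binding protein, was higher. The calls of Igfbp3 and Crabp1 were lost in 14 and 11 of the 22 settings. The medians of these 3 lists lay between 0.01 and 0.16, and their other members did not pass.

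Calls among smooth muscle and elastic fibre genes were near the 1.63% of all tested genes. Of 18 tested genes of the contractile apparatus, 0 passed by limma in either direction, and the smallest adjusted p was 0.332. Their median was -0.08, with Acta2 at -0.03 ± 0.15 and Myh11 at 0.11 ± 0.14. Of 19 elastic fibre and lysyl oxidase genes, Efemp1 was lower in DA (list median -0.17). Eln, which encodes tropoelastin, read 10.49 and 10.75 in AA against 10.45 and 10.33 in DA at E17.5, then 12.39 and 12.33 against 12.42 and 12.21 at P1. The locations overlapped at P1 (-0.24 ± 0.31, adjusted p = 0.943, limma).

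Collagens of the interstitial matrix differed in part. Of 20 tested, 3 were higher in DA, Col8a1 (1.34), a collagen made by vascular cells, Col11a1 (0.90) and Col12a1 (0.78), and 0 were lower by limma. Over all tested genes, 1.38% were higher. Col8a1 read 6.39 and 6.61 against 8.28 and 8.30 at E17.5 and 8.03 and 8.66 against 9.74 and 9.18 at P1, with no overlap (adjusted p = 0.000846, limma). Podn (0.64), a small leucine-rich proteoglycan, was the 1 call among 23 proteoglycans and matricellular proteins. The list medians were 0.07 and -0.01.

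Of 17 tested endothelial markers, 6 passed and were higher in DA, against 1.38% of all tested genes, and the median was 0.30. They were Kdr (1.03) and Flt1 (0.57), both receptors for vascular endothelial growth factor, Vwf (1.02), Ptprb (0.62), Sox17 (0.57) and Cdh5 (0.56). Vwf, the clotting factor of endothelial storage granules, read 6.22 and 5.88 in AA against 7.02 and 7.22 in DA at E17.5, then 8.26 and 8.10 against 9.53 and 9.19 at P1. Its DA arrays were higher at both stages (adjusted p = 3.47e-05, limma), while Pecam1, found on all endothelium, had 0.25 ± 0.13 (adjusted p = 0.264, limma). The call of Cdh5 was lost in 12 of the 22 settings, that of Ptprb in 9, of Flt1 in 7 and of Kdr and Sox17 in 5 each. Vwf kept its call in all 22. After each array was centred on its median, Ptprb, Flt1 and Cdh5 did not pass.

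Markers of other tissues around the vessel gave scattered calls. The macrophage genes Cd163 (0.70) and Adgre1 (0.55), the glial gene Fabp7 (1.68) and the fat cell regulator Pparg (0.98) were higher in DA, 2 of 15, 1 of 6 and 1 of 12 tested, with list medians of 0.25, 0.13 and 0.57. Over all tested genes, 1.38% were higher. Car3, a carbonic anhydrase abundant in fat and muscle, stood among the 15 genes with the largest positive differences (1.95 ± 0.54) and lost its call in 16 settings, as Pparg did in 13. Cd163 and Adgre1 each lost theirs in 10 of the 22 settings and Fabp7 in 6. Of 12 skeletal muscle markers (median 0.56), 17 heart muscle markers (median 0.10) and 9 cartilage markers (median -0.08), 0 passed by limma, with smallest adjusted p of 0.297, 0.123 and 0.0981. The mean of the fat markers was 5.07 to 5.22 in AA and 5.22 to 5.23 in DA at E17.5, then 6.65 to 6.80 against 7.72 to 7.95 at P1. That of the skeletal muscle markers was 4.95 to 4.98 against 5.13 to 5.55 at E17.5 and 5.44 to 6.24 against 6.33 to 7.41 at P1, and the part of either tissue in the results was not tested.

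**Figure D4:**
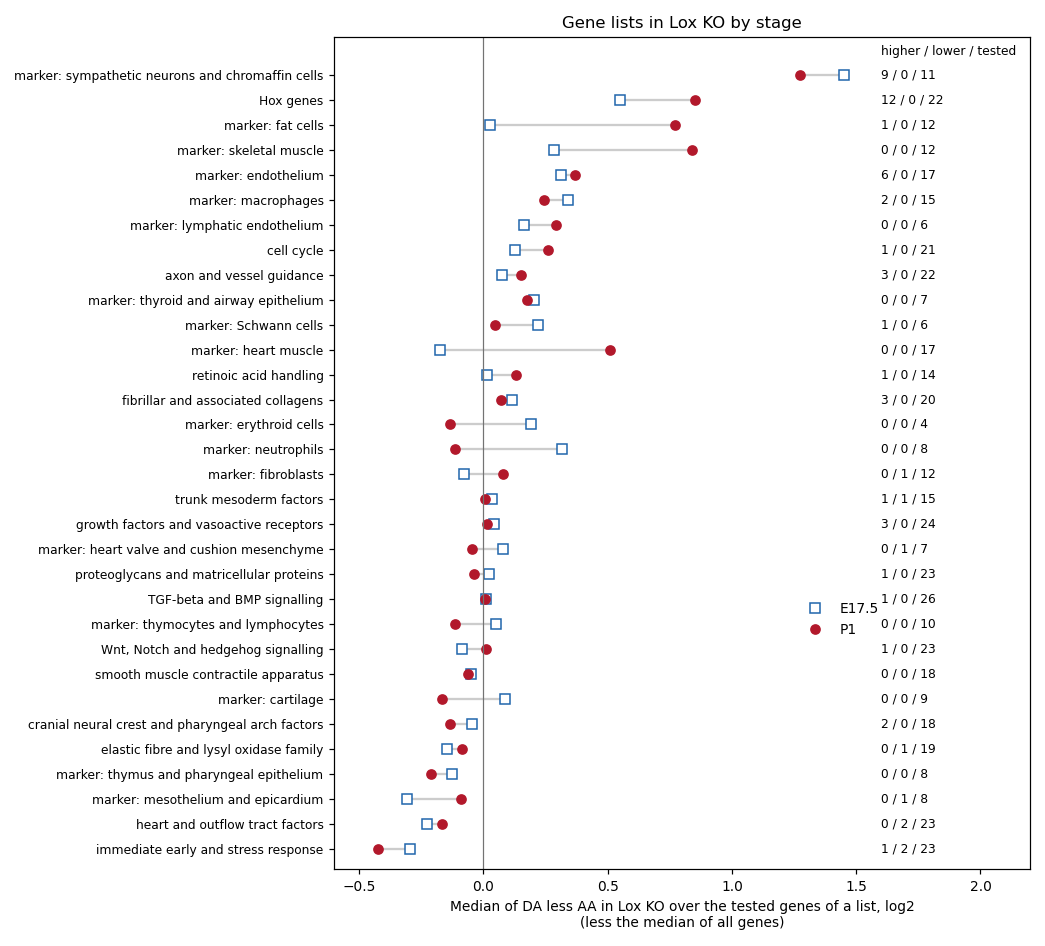
Median of DA less AA in Lox KO over the tested genes of each list, in log2 units less the median of all tested genes, at E17.5 (open squares) and P1 (filled circles). Numbers at the right give the genes higher in DA, lower in DA and tested. The sympathetic markers lie farthest to the right at both stages. The immediate early and stress genes, at -0.42, lie farthest to the left at P1, and the mesothelium and epicardium markers, at -0.31, at E17.5.

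Of 23 tested immediate early and stress genes, 20 did not pass. Ptgs2 and Atf3 (-0.87 ± 0.20, adjusted p = 0.0429, limma) were lower in DA, Saa3 (1.50 ± 0.41, adjusted p = 0.0336, limma) was higher, and 21 of the 23 differences were below 0, with a median of -0.36. Atf3, a stress-induced transcription factor, read 6.06 and 5.26 in AA against 4.77 and 3.99 in DA at E17.5, then 7.80 and 7.49 against 7.25 and 7.55 at P1, so the locations overlapped at P1. The list's mean was highest in 1 of the 4 E17.5 arrays, AA number 1, at 5.92 against 5.20 to 5.34 in the other 3. At P1 both AA arrays, at 7.88 and 8.00, were above both DA arrays, at 7.59 and 7.68. Saa3 read 2.23 and 2.81 in AA against 4.17 and 5.09 in DA at E17.5. At P1 it read 5.99 and 8.67 against 8.13 and 8.76, so its locations also overlapped there. Without AA number 1 of P1, Saa3 had a difference of 0.82. Atf3 and Saa3 lost their calls in 12 and 14 of the 22 settings.

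Of 21 tested cell cycle genes, 20 had values above 0, with a median of 0.16, and only Mcm2 (0.43 ± 0.13, adjusted p = 0.0174, limma), a subunit of the replicative helicase, passed. It read 5.47 and 5.42 in AA against 6.13 and 5.86 in DA at E17.5, then 6.79 and 6.81 against 7.50 and 7.15 at P1. The DA arrays were higher at both stages, and the call was lost in 10 of the 22 settings.

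Taken by stage, 48 genes differed between DA and AA at E17.5 (36 higher, 12 lower, or 0.313%, 0.235% and 0.0782% of those tested) and 62 at P1 (53 higher, 9 lower, or 0.404%, 0.346% and 0.0587%). Hoxb6 passed at each stage, with 2.52 ± 0.34 at E17.5 and 3.58 ± 0.34 at P1. The difference between the stages was tested itself, and 0 genes passed by limma, with 397 at an unadjusted p under 0.05. The smallest p belonged to C7, a complement gene, where DA exceeded AA by 0.04 at E17.5 and 1.21 at P1 (1.17 ± 0.32, adjusted p = 0.999, limma). Sema3a came next, with 0.03 at E17.5 and 0.69 at P1 (adjusted p = 0.999, limma). The stages also differed in their array medians, and the part of that in these values was not tested.

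The same comparison in Lox WT aorta asked whether the regional pattern depended on the deletion. In WT, 205 genes were higher in DA and 48 lower, 1.34% and 0.313% of those tested. Of the genes higher in KO, 122 were also higher in WT, 57.8% of the KO list and 59.5% of the WT list, and 22 were lower in both, 56.4% and 45.8%. No gene was called in opposite directions, and 249 of the 250 KO genes had the same sign in WT. The exception was Bmp3 (0.65 in KO, -0.25 in WT), and the share of all tested genes with the same sign was not counted. KO and WT share no array here, but they share the variance estimate of the fit.

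Tested directly, the DA less AA difference of KO less that of WT passed for 0 genes by limma, with 259 at an unadjusted p under 0.05. For Hoxb6 that difference was 0.05, with a 95% interval from -0.64 to 0.75, and for Dbh 0.09, from -1.46 to 1.65. For Tcf21 KO had -2.44 and WT -2.01. These intervals leave room for a change of more than a doubling in Dbh, so the absence of calls does not show that KO and WT were alike. The same 12 Hox genes were higher in DA in both genotypes, and so were 8 of the sympathetic markers, which counted 9 in each. WT medians of these lists were 0.70 and 1.17. In WT DA at E17.5, array number 1 was above number 2 for Chgb (8.11 and 5.55) and Dbh (7.24 and 5.74), while Hoxb6 read 7.36 and 7.94. The mean of the sympathetic markers was 6.86 and 5.86 in these arrays and the Hox mean 4.80 and 4.75.

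Several genes had wider gaps between the locations in KO without passing that test. Ptn fell by 1.95 from AA to DA in KO and by 1.32 in WT, a difference of -0.64 with an unadjusted 95% interval from -1.02 to -0.26. In WT it read 10.29 and 10.55 against 9.25 and 9.23 at E17.5 and 10.43 and 10.46 against 9.28 and 8.99 at P1. At P1 the KO DA arrays, at 8.63 and 8.24, lay below the WT DA arrays, at 9.28 and 8.99. The medians of these arrays were also lower in KO, 5.03 and 5.19 against 5.34 and 5.35, and the part of that in the gap was not tested. Ptgs2 had -1.15 (-2.10 to -0.20), Atf3 -0.79 (-1.37 to -0.21) and Mcm2 0.41 (0.04 to 0.77). All 4 had an adjusted p of 1 by limma, and they were looked at because they passed in KO, which favours a larger KO value.

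**Figure D5:**
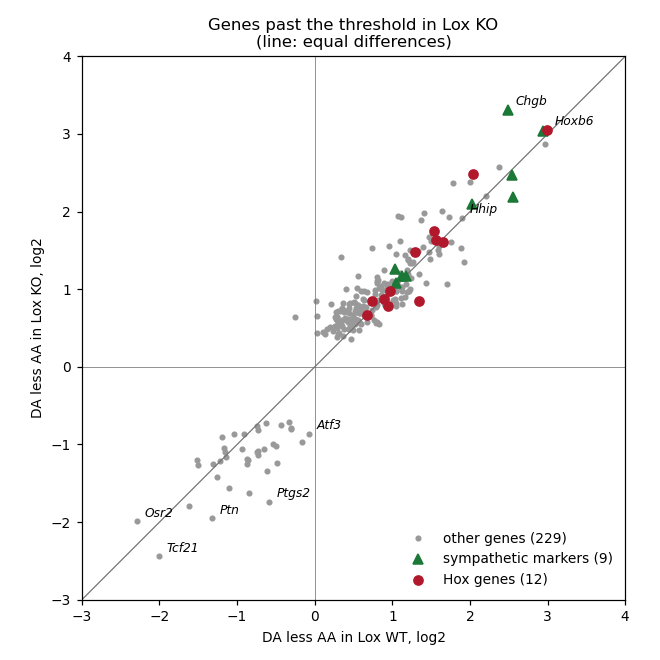
DA less AA in Lox KO (vertical axis) against the same difference in Lox WT (horizontal axis), in log2 units less the median of all tested genes, for the 250 genes past the threshold in KO. Red circles are the 12 Hox genes, green triangles the 9 sympathetic markers, grey points the other 229 genes, and the diagonal marks equal differences. Since the genes were chosen on KO, points tend to lie farther from 0 on the KO axis, and Atf3 lies at -0.07 and Ptgs2 at -0.59 on the WT axis.

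The 5 genes with the smallest p for the difference between KO and WT were Csta3, Bmp3, Epdr1, Sftpa1 and Cxcr2, each with an adjusted p of 1 by limma. Csta3, which encodes a cystatin, read 4.98 and 2.92 in AA against 3.43 and 3.27 in DA at E17.5, then 7.93 and 8.29 against 5.55 and 6.16 at P1 in KO. In WT it read 1.59 and 1.78 against 5.01 and 5.08 at E17.5 and 5.09 and 4.13 against 5.40 and 5.95 at P1. The WT arrays of DA lay above those of AA at both stages, while KO was higher in AA at P1 and overlapped at E17.5 (difference -3.68 ± 0.87).

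Against the mean of the other 2 knockouts, Eln and Efemp2, 0 genes differed in DA less AA by limma, with 470 at an unadjusted p under 0.05 and a smallest adjusted p of 0.51. That smallest value belonged to Hoxb6, with 3.05 in Lox KO, 1.79 in Eln KO and 1.62 in Efemp2 KO, a difference of 1.34 ± 0.30. Mcm2 had 0.43 in Lox KO, -0.06 in Eln KO and -0.16 in Efemp2 KO (adjusted p = 1, limma). Eln KO had 223 genes higher and 95 lower in DA (1.45% and 0.619%), and Efemp2 KO 128 and 70 (0.835% and 0.456%). The strain of those models was C57BL/6, so model and strain cannot be told apart.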

How the data were processed

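RNA of 48 arrays was read. The deposited values are log2 signals per probe set that the authors summarised with RMA in Affymetrix Expression Console, per the submitters' processing notes, from biotin-labelled RNA amplified from 5 ng, per the labels' protocols. Versions, array name and genome build are not given in the sources used here. Depth has no meaning for arrays, and 2 arrays per group limit the precision.

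Of 41345 probe sets, 23521 carried 1 gene symbol, 1814 several and 16010 none. For each of 22180 genes the probe set with the highest mean was used, and 15337 genes with at least 1 group mean of 4.94 were tested. In limma 3.58.1 (R 4.3.3) a mean for each of 24 groups was fitted to all 48 arrays, which share 1 variance estimate with 24 residual degrees of freedom, and DA less AA was averaged over the stages. The Benjamini-Hochberg threshold was 0.05. The script was tested on simulated data. What a replicate number marks is not given. In Lox KO the deviations of same-numbered AA and DA arrays correlated at 0.014 (E17.5) and -0.18 (P1), too low to treat the numbers as pairs, although Lox itself was higher in number 1 at both locations and stages.

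Genes named were Lox, the 15 genes with the largest positive and 15 with the largest negative differences past the threshold with the same sign at both stages, all tested Hox genes, up to 8 members of a list past the threshold, and for the differences between effects up to 8 or 5 each way or, with under 3 past the threshold, the 5 of smallest p. The members and lists were chosen with earlier results of these data known. Predicted, olfactory and small RNA genes were skipped. Genes named otherwise, such as Acta2 or Eln, serve to describe a list.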

Additional observations from a re-analysis of the deposited data

How the results depend on the processing

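Of 72 named genes past the threshold, 14 kept their call under all 22 settings, 12 lost it in at least 11, and 5 reversed with the sympathetic covariate, Snap25 (-0.027), Gng3 (-0.31), Tubb3 (-0.68), Gap43 (-0.25) and Prph (-0.10). Cyclic loess gave 80 genes lower in DA and 75 that differed at E17.5. Centring gave 133 higher, 61 lower and 36 at P1. A fit of the 16 Lox arrays alone gave 398 higher, 75 lower, 139 at E17.5, 199 at P1 and 1 gene, Csta3, that differed between KO and WT (adjusted p = 0.029, limma), and the 8 Lox KO arrays alone with a stage block gave 538 and 92. With array background as a covariate, 335 were higher and 136 differed at P1. Background was 2.65 to 2.84 in AA and 2.91 to 2.95 in DA at P1. The added sympathetic covariate gave 13 higher, 10 lower, 4 at E17.5 and 19 at P1, and leaving out both number 1 arrays at E17.5 gave 93, 15 and, at E17.5, 8. Leaving out each array in turn gave 115 to 146 higher, 24 to 39 lower, 7 to 44 at E17.5, 15 to 62 at P1, 0 to 1 between KO and WT (Slc34a2), 0 to 0 between the stages and 0 to 0 against the other knockouts. The higher count came to 134 without AA number 1 and 129 without AA number 2 at E17.5, 132 without DA number 2 at E17.5, 122 without AA number 1 and 133 without AA number 2 at P1, and 115 without DA number 1 at P1. Lower counts were 26 without AA number 1 and 24 without DA number 2 at E17.5, and 26 without AA number 2 at P1. Each array of a stage moved that stage's count: E17.5 fell to 15 without AA number 1, 10 without AA number 2, 10 without DA number 1 and 7 without DA number 2, and P1 to 18, 21, 15 and 32 in that order.

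The numbers are shared only by label. With the replicate number as a fixed block 200 genes were higher, 40 lower, 47 differed at E17.5 and 68 at P1, and with a random block 245, 50, 74 and 87. With P1 numbers crossed, chosen after the data were seen, the counts were 209, 42, 48 and 73.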

Other observations

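Single genes outside the lists, chosen here after their values were seen and so no evidence of a theme, also passed in Lox KO. The apelin receptor gene Aplnr (1.61 in KO, 1.76 in WT) and the transcriptional cofactor gene Eya2 (1.46 and 1.05) were higher in DA, and the Wnt antagonist gene Sost (-1.16 and -1.15) was lower.

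Probe sets with several symbols or none numbered 17824. Of 10321 tested in a fit of their own, 7 were higher in DA in Lox KO and 20 lower, the opposite balance to the 211 and 39 named genes.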
